A study of Homo sapiens with 9 samples.

Results

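The genes described here are 10 genes of the NF-kappaB pathway, made up of 4 of its DNA-binding subunits and 6 genes that the pathway is known to switch on. They were taken by name, and a probe set of the deposited table counted as a member where the platform annotation gives it to 1 of these genes alone. The genes were chosen with earlier results of these data known, so counts of members describe them and are no test of the pathway. This gave 16 of the 27306 probe sets, for 9 of the 10 genes. The genes with probe sets were NFKB1, NFKB2, REL, RELB, NFKBIA, NFKBIE, TNFAIP3, TRAF1 and ICAM1, and BIRC3 has no probe set listed under its name alone, so no value is given for it.

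NF-kappaB is a family of dimeric transcription factors that wait in the cytoplasm, bound by inhibitor proteins of the IkB family. When a receptor or protein kinase C activates the IkB kinase complex, the inhibitors are marked for destruction and the dimers move into the nucleus, where they bind kappaB sites. Among the genes then transcribed are the inhibitors and subunits themselves, which makes the pathway a feedback loop, and in blood cells these genes are known for answering inflammatory signals and phorbol esters.

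Levels were measured on 9 expression arrays of 2 human leukemia cell lines, K562 and HEL, both of which can be pushed towards red cell or platelet precursor features. Of the 6 K562 arrays, 2 were of untreated cells, 1 was of cells given 25 µM hemin and 1 of cells given 50 µM hemin, the oxidized form of heme. The others were 1 of cells given 100 nM decitabine (DAC), a DNA methyltransferase inhibitor, and 1 of cells given 5 nM PMA, a phorbol ester that activates protein kinase C. The 3 HEL arrays were of untreated cells, of cells given 20 nM DAC and of cells given 5 nM PMA. PMA was given for 48 h, while DAC was pulsed 3 times for 24 h each and cells were collected 144 h after the first pulse. These doses are those of the sample titles; the shared protocol differs from them for DAC and hemin, and no source used here gives the hemin exposure time. The labels call 1 of the untreated K562 arrays a replicate without saying that it came from a separate culture, so that p-values measure array-to-array spread, which for this pair could be technical only. The hemin pair enters the fits as 1 group although its arrays differ in dose, so that part of the spread behind every test is the difference between 25 and 50 µM.

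Values are GCRMA log2 levels, so that a difference of 1 is a doubling. The median level over all probe sets was 6.67 to 6.78 on every array, and 65.5% to 67.3% of the probe sets of an array were at 5 or more, the minimum that a probe set had to reach on any array to enter a fit. Levels below 5 were treated as not measured above background. A fitted change that starts below 5 depends on that low value, and those of RELB and TRAF1 are given with a lower bound in which the low level is set at 5. Low levels were set at 5 for members and listed genes alone, so shares and medians over all genes keep the deposited levels. The deposited table repeats values, and of the 21850 probe sets that reach 5 on any of the 9 arrays 32.2% hold 1 value (within 1e-06) on 2 or more arrays, as do 8 of the 16 member probe sets. Where replicate arrays share a value they show no spread, and a standard error then takes its size mostly from the other genes. Of the erythroid markers (hemoglobins and heme enzymes among them), 9 of 10 have a probe set and all 9 were at 5 or more in untreated cells of both lines. Of the megakaryocyte markers 8 of 10 have one, and 2 of these 8 were at 5 or more on each untreated K562 array against 7 on the untreated HEL array. In such bulk samples fewer expressing cells and less RNA per cell cannot be told apart.

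Promoter sequence is shown because NF-kappaB proteins are known to act on their own genes through kappaB sites. In RefSeq windows of the GRCh38.p14 build, from 250 bases before to 50 bases after each start, 8 of the 10 members had an entry, with 13 windows. The kappaB decamer consensus was searched by its letters on both strands, and overlapping matches were counted once per window. It was found in 7 of the 13 windows and in 6 of the 8 genes (NFKB1, NFKB2, REL, NFKBIA, TNFAIP3 and BIRC3), against 11.3% of all 35116 windows and 13.3% of the 27305 genes with a window. The 3 windows of TRAF1 and the window of ICAM1 did not hold these letters, which says nothing of sites elsewhere. For NFKB1, REL, NFKBIA and TNFAIP3 the stretches below carry every match, and for NFKB2 those of 1 of its 2 windows with matches, printed 5′ to 3′ along the strand of the gene, with the matching bases in capitals. A match is a description of the sequence and not evidence of binding.
NFKB1 (chr4:102501275-102501354, plus strand): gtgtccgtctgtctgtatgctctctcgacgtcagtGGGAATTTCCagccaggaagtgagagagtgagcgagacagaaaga
NFKB2 (chr10:102394436-102394544, plus strand): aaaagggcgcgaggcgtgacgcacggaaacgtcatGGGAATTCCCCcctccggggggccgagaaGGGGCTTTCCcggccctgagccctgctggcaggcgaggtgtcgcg
REL (chr2:60881492-60881572, plus strand): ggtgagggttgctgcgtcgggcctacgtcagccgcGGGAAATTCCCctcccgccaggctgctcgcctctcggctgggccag
NFKBIA (chr14:35404786-35404865, minus strand): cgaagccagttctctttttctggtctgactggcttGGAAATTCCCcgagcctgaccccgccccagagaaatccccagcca
TNFAIP3 (chr6:137867157-137867248, plus strand): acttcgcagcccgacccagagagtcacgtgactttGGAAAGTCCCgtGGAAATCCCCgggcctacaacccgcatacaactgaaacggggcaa

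In K562 cells with PMA, all 9 measured genes were at their highest level of the 9 arrays, and so was every one of the 16 probe sets. Over all genes tested, 21.4% had their highest level on that array. In limma, fitted over the 6 K562 arrays with adjustment over all 9890 genes, 7 of the 9 members rose (adjusted p under 0.05), against 7.74% of all genes. Among the 7, RELB and TRAF1 reached 5 on no K562 array but that with PMA. They entered the fit only through it, so every count of members in this paragraph includes genes kept because they were high with PMA. All 9 were over 1.5-fold higher, against 25.8% of all genes, and their median log2 change was 3.61 (3.41 with low levels set at 5), against -0.10 over all genes. The treatment has 1 array, so the fit assumes that it varies like the untreated and hemin arrays, and without any one of these 4 arrays 0 of the 9 members passed, as did 0 of all genes.

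**Figure D1:**
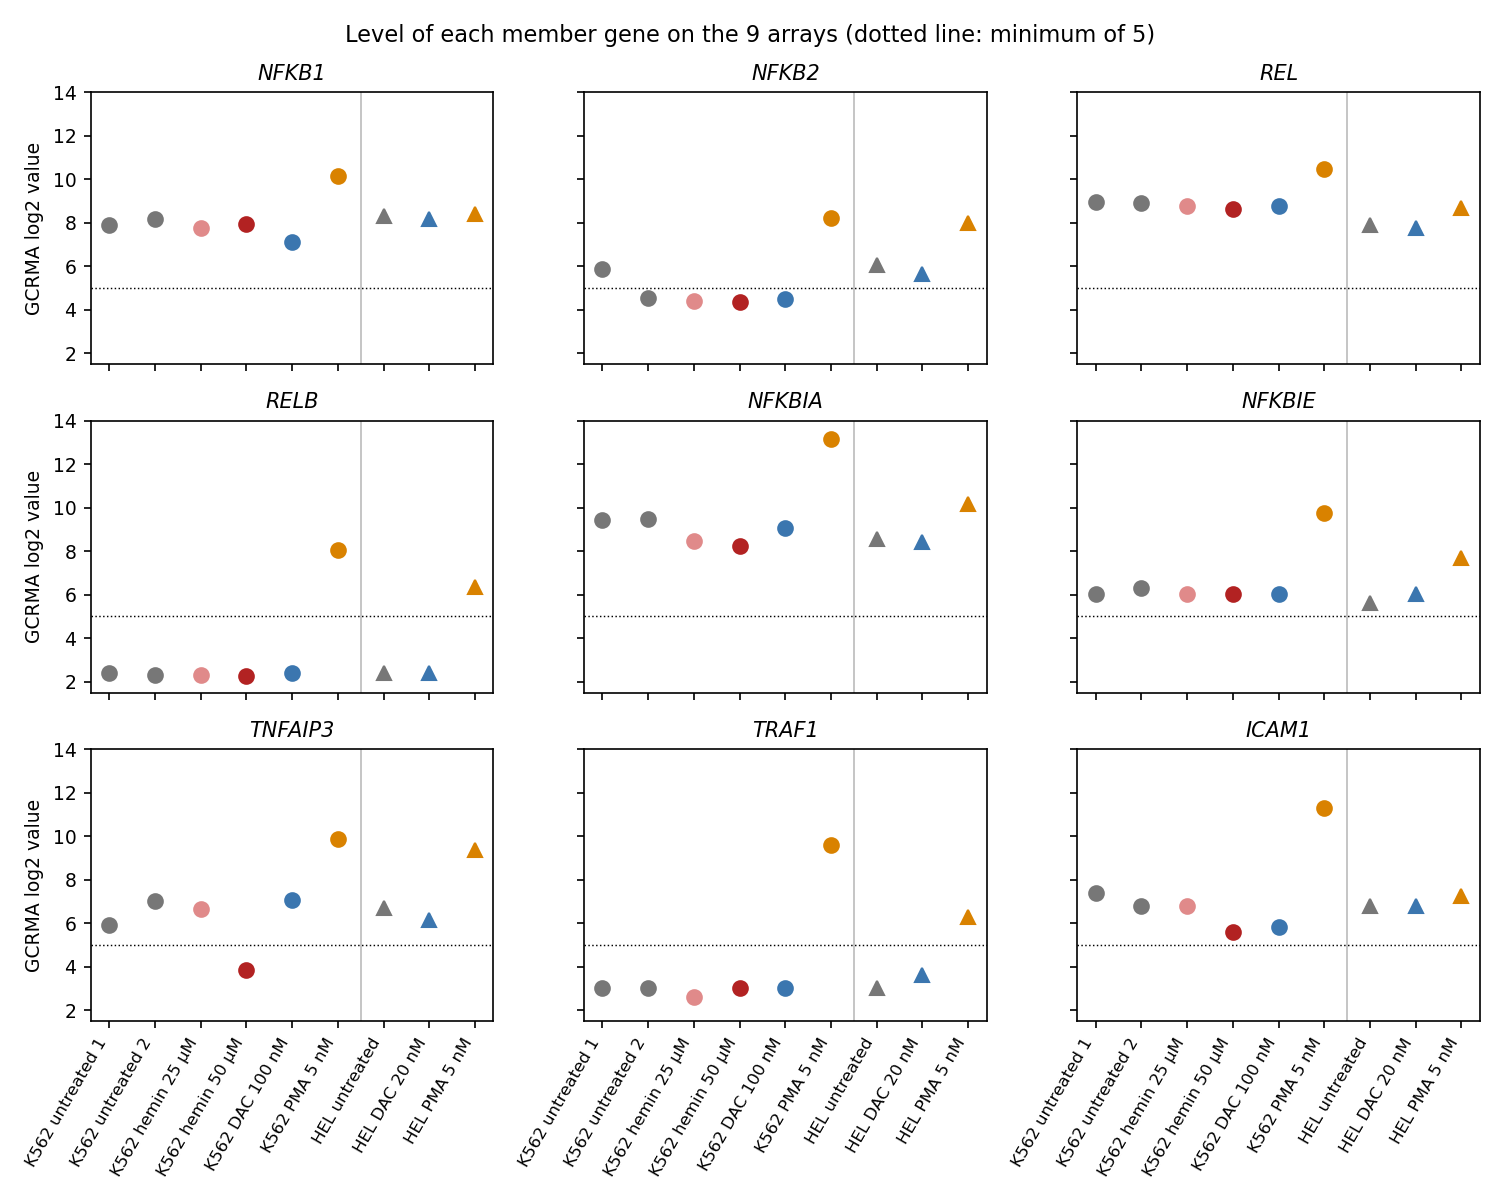
GCRMA log2 level of each of the 9 measured genes (vertical axis) on each of the 9 arrays (horizontal axis, circles for K562 and triangles for HEL), with a dotted line at the minimum of 5; each gene is shown by its brightest probe set. On the K562 PMA array each gene stands above the other 8 arrays, while NFKB1 and ICAM1 on the HEL PMA array lie near the untreated HEL level.

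RELB encodes the subunit that pairs with the NFKB2 product in the slower, non-canonical branch of the pathway. Its level was 2.41 and 2.33 on the untreated K562 arrays, 2.32 and 2.25 with 25 and 50 µM hemin and 2.41 with DAC, and it was 8.03 with PMA. It thus went from below the minimum on 5 K562 arrays to a clear signal on the sixth, at least 8.19-fold higher when the untreated level is set at the minimum. The fitted log2 change was 5.67, with a standard error (SE) of 0.21 and an adjusted p = 0.00502 from limma, and it rests on values below the minimum.

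NFKB1 encodes the precursor that is cut to p50, the usual partner of RELA. It was at 7.90 and 8.14 in untreated cells, 7.73 and 7.94 with 25 and 50 µM hemin, 7.11 with DAC and 10.16 with PMA. PMA was 2.02 above the next highest K562 array, and the log2 change of 2.14 passed the test (SE 0.25, adjusted p = 0.0177 from limma). REL, the subunit c-Rel that is best known from lymphocytes, has 4 probe sets. The brightest was at 8.94 and 8.90 in untreated cells, 8.75 and 8.61 with hemin, 8.76 with DAC and 10.47 with PMA, a log2 change of 1.55 (SE 0.22, adjusted p = 0.0238). The PMA difference over its 4 probe sets ran from 0.88 to 2.61, so that they had the same direction and differed in size.

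NFKB2 encodes p100, which serves as an inhibitor until it is cut to p52. Its brighter probe set was at 5.87 and 4.53 on the untreated arrays, 4.38 and 4.34 with hemin, 4.47 with DAC and 8.21 with PMA. The untreated pair alone differed by 1.33, the widest gap among the probe sets that represent the genes, and the log2 change of 3.01 with PMA just missed the threshold (SE 0.62, adjusted p = 0.0502 from limma). The other NFKB2 probe set lay between 3.45 and 3.82 on the 5 K562 arrays without PMA and at 5.90 with it.

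The inhibitors that close the loop had larger log2 changes with PMA than NFKB1 and REL, an order that was not tested. NFKBIA encodes IkB alpha, which is rebuilt within the loop and takes dimers back out of the nucleus. Its level was 9.42 and 9.46 in untreated cells, 8.48 and 8.25 with 25 and 50 µM hemin, 9.07 with DAC and 13.17 with PMA. The PMA array thus stood at least 3.71 above every other K562 array, with a log2 change of 3.73 (SE 0.23, adjusted p = 0.0072 from limma), or 13.3-fold. NFKBIE encodes IkB epsilon, which takes part in the same recall of dimers. It was at 6.04 on 4 of the K562 arrays (untreated 1, both hemin doses and DAC), at 6.29 on the other untreated array and at 9.77 with PMA. The 4 equal values are 1 repeated number, so its standard error of 0.24 reflects other genes more than its own spread; the log2 change was 3.61 (adjusted p = 0.00725).

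TNFAIP3 encodes A20, the ubiquitin-editing enzyme that shuts down signalling from receptors to the IkB kinase. Its brighter probe set was at 5.91 and 7.01 in untreated cells, 6.65 and 3.84 with 25 and 50 µM hemin, 7.07 with DAC and 9.87 with PMA. PMA was above all other K562 arrays by at least 2.80, but the spread within the untreated and the hemin arrays was wide, and the log2 change of 3.41 did not pass (SE 1.33, adjusted p = 0.158 from limma). The dimmer TNFAIP3 probe set had the same order at its ends, with 2.58 at 50 µM hemin and 8.87 with PMA.

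TRAF1 and ICAM1 stand for the outputs of the pathway. TRAF1 encodes an adaptor of TNF receptors that can feed signals back into NF-kappaB. It was at 3.01 on 4 of the K562 arrays, at 2.62 with 25 µM hemin and at 9.60 with PMA. That is at least 24.3-fold from the minimum, and the fitted log2 change of 6.59 (SE 0.27, adjusted p = 0.00619 from limma) again rests on values below it. ICAM1 encodes an adhesion molecule that binds leukocyte integrins. Its brightest probe set was at 7.37 and 6.80 in untreated cells, 6.77 and 5.57 with 25 and 50 µM hemin, 5.81 with DAC and 11.31 with PMA, a log2 change of 4.23 (SE 0.62, adjusted p = 0.0256 from limma). This call was also lost with no filter on low values (adjusted p = 0.0680) and with all 9 arrays in 1 fit (adjusted p = 0.0565), among adjusted p from 0.00819 to 0.164 over the alternatives. The other probe sets of ICAM1 had PMA differences of 4.54 and 3.38, so that its 3 probe sets shared the direction.

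In HEL cells the same dose of PMA went with smaller log2 differences in all 9 genes, though none differed between the lines past the threshold. All 9 genes were highest of the 3 HEL arrays with PMA, against 34.5% of all genes, and 7 of 9 were over 1.5-fold higher, against 14.6%. The median log2 change was 1.90 (1.37 with low levels set at 5), against -0.06 over all genes. Each HEL condition has 1 array, so these tests come from a fit over all 9 arrays in which HEL is assumed to vary like the K562 pairs. RELB and TRAF1 reached 5 only on the 2 PMA arrays, so the counts of members here include genes kept because they were high with PMA. These 2 genes entered this fit through those arrays alone. In it 1 of the 9 members, RELB, passed, against 1.06% of the 10560 genes, and 5 of 9 had an unadjusted p under 0.05 (RELB, TRAF1, NFKBIE, NFKBIA and REL), against 14.8% of all genes. Without any one of the 4 untreated and hemin K562 arrays 0 of the 9 passed.

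RELB was at 2.41 in untreated HEL cells, 2.41 with DAC and 6.37 with PMA, which is at least 2.58-fold from the minimum (fitted log2 change 3.96, SE 0.13, adjusted p = 0.0317 from limma). TRAF1 was at 3.01 untreated, 3.63 with DAC and 6.26 with PMA, at least 2.40-fold from the minimum (log2 change 3.25, SE 0.25, adjusted p = 0.055). Both genes were therefore below the minimum in untreated cells of either line and above it with PMA in either line. With low levels set at 5 the log2 changes in HEL were 1.37 for RELB and 1.26 for TRAF1. The call of RELB thus rests on values below the minimum. NFKBIE was at 5.61, 6.02 and 7.67 on the same 3 arrays (log2 change 2.06, SE 0.19, adjusted p = 0.0695).

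NFKBIA was at 8.54 in untreated HEL cells, 8.43 with DAC and 10.15 with PMA (log2 change 1.61, SE 0.18, adjusted p = 0.0905 from limma). The PMA level is 3.02 under that of K562 cells with PMA. TNFAIP3 was at 6.71, 6.17 and 9.38 (log2 change 2.68, SE 1.75, adjusted p = 0.61), which is 0.49 under its level in K562 cells with PMA. By the dimmer TNFAIP3 probe set the HEL level was 1.30 under that of K562. NFKB2 was at 6.06, 5.62 and 7.96, and its PMA level was 0.25 under that in K562, or 0.34 by its dimmer probe set.

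The subunit genes NFKB1 and REL and the adhesion gene ICAM1 had the smallest log2 changes with PMA in HEL. NFKB1 was at 8.31 untreated, 8.14 with DAC and 8.38 with PMA, a log2 change of 0.07 (SE 0.22, adjusted p = 0.959 from limma). ICAM1 was at 6.77, 6.80 and 7.24, a log2 change of 0.47 (SE 0.78, adjusted p = 0.88), and its other probe sets differed by 0.59 and 0.04. REL was at 7.88, 7.74 and 8.68, a log2 change of 0.80 (SE 0.14, adjusted p = 0.169), with differences from -0.11 to 0.80 over its 4 probe sets. A p that misses the threshold with 1 array does not show that these genes stayed level.

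**Figure D2:**
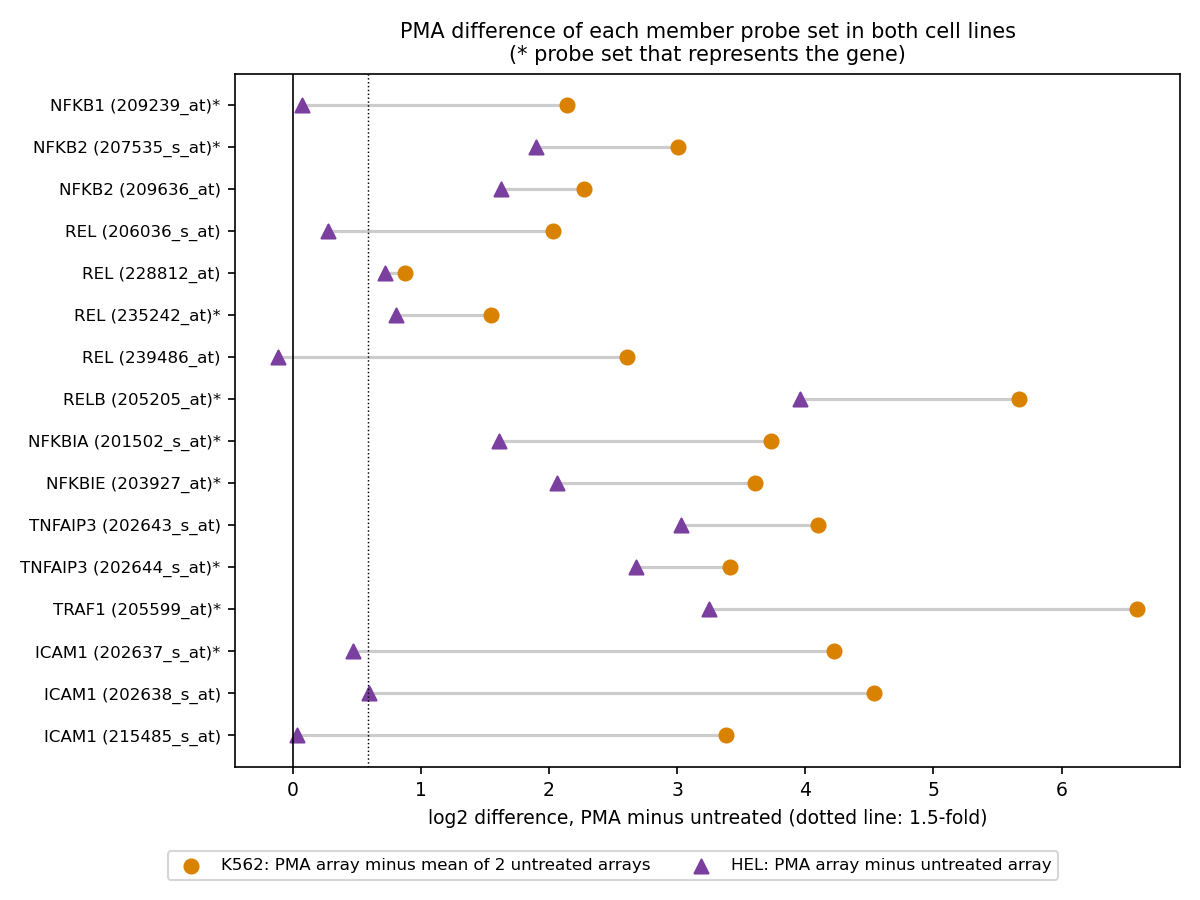
Difference in log2 level between PMA and untreated cells (horizontal axis) for each of the 16 member probe sets (rows; the identifier of the probe set in brackets), as circles for K562 and triangles for HEL, with a dotted line at 1.5-fold. The circle lies to the right of the triangle in all rows, by most for the 3 ICAM1 probe sets and TRAF1; changes of RELB, TRAF1 and the dimmer NFKB2 and TNFAIP3 probe sets start from below the minimum of 5 in both lines.

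The PMA difference was smaller in HEL than in K562 for all 9 genes. This order was tested as the difference between the differences in the 9-array fit, and 0 of the 9 passed in limma, against 2.66% of all genes, with 7 of 9 at an unadjusted p under 0.05, against 21.1% of all genes. The values were -3.76 for ICAM1 (SE 1.03, adjusted p = 0.202), -3.34 for TRAF1 (0.34, 0.0593), -2.12 for NFKBIA (0.24, 0.0662), -2.07 for NFKB1 (0.29, 0.0874) and -1.71 for RELB (0.17, 0.0593), in the same order of log2 value, standard error and adjusted p. The remaining 4 were -1.55 for NFKBIE, -1.11 for NFKB2, -0.75 for REL and -0.74 for TNFAIP3, with adjusted p from 0.0996 to 0.887. Of these NFKB2 was at -1.78 without untreated K562 array 1 and -0.44 without array 2, and TNFAIP3 at -0.19 and -1.29. A difference between the lines was thus not shown for any single member, and the smaller value in HEL is an order of 1 array per treatment. With each array centred on its median 1 of the 9 passed, and with no filter on low values or with an intensity trend 2 did.

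Between untreated cells of the lines, 1 of the 9 genes passed in limma, against 20.2% of all genes. This was REL, which was at 8.94 and 8.90 in untreated K562 and lower, at 7.88, in untreated HEL (log2 difference -1.04, SE 0.12, adjusted p = 0.0264), a call that is lost without any one of the 4 untreated and hemin K562 arrays. It was also lost with the mean of all kept probe sets (log2 difference -0.77, adjusted p = 0.117 from limma). The differences of the 4 REL probe sets ran from -1.64 to 0.31, the last from a probe set at 5.85 and 4.16 in untreated K562. NFKBIA was 0.90 lower in HEL and just missed the threshold (log2 difference -0.90, SE 0.15, adjusted p = 0.0507). RELB and TRAF1 were below the minimum in both lines and have no order there.

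With hemin the levels of some members were lower, and none passed the threshold. In limma 0 of the 9 members passed, as did 0 of all genes (0%), and 1 of 9 had an unadjusted p under 0.05, as did 1012 of the 9890 genes. Taking both doses as 1 group, 4 of 9 were over 1.5-fold lower (NFKBIA, NFKB2, TNFAIP3 and ICAM1) and 0 were higher, against 14.2% of all genes lower. For 5 of the 9 genes both hemin arrays were below both untreated arrays, against 22.6% of all genes. Of these 5, RELB and most NFKB2 values lie below the minimum and have no order, which leaves 3 (REL, NFKBIA and ICAM1). With low levels set at 5 the change of NFKB2 was -0.43, and 3 of 9 genes were over 1.5-fold lower, a setting without a share of all genes. The untreated pair itself differed by over 1.5-fold in 2 of 9 genes (NFKB2 and TNFAIP3), against 24.4% of all genes.

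NFKBIA had the clearest separation. Its hemin arrays were 0.96 (25 µM) and 1.19 (50 µM) below the untreated mean, while the untreated arrays lay 0.04 apart (log2 change -1.07, SE 0.19, adjusted p = 0.467 from limma, unadjusted p = 0.00501). ICAM1 was 0.31 below the untreated mean at 25 µM and 1.51 below at 50 µM by its brightest probe set. A dimmer ICAM1 probe set was 1.72 and 3.61 below, with the last value at 3.60, under the minimum, and the remaining one was 1.18 and 0.36 below. The ICAM1 probe sets thus shared the direction and did not share the order of the doses.

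TNFAIP3 was 0.19 above the untreated mean at 25 µM and 2.62 below it at 50 µM, where its level of 3.84 is under the minimum. Its direction with hemin therefore comes from the 50 µM array alone. With 25 µM, 2 of 9 members were over 1.5-fold lower (NFKBIA and, with levels below the minimum, NFKB2), against 9.68% of all genes, and with 50 µM 4 of 9 were, against 20.8%. With low levels set at 5 these were 1 and 3 of 9, and no share of all genes was computed at that setting. The 50 µM array thus held more low genes throughout. Each dose has 1 array, and dose and array cannot be told apart.

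With DAC in K562 cells 0 of 9 members passed in limma, against 0.0607% of all genes (6 of 9890), and 1 of 9, NFKB1, had an unadjusted p under 0.05, as did 1072 of all genes. Over 1.5-fold lower were 3 of 9 (ICAM1, NFKB1 and NFKB2, the last with a DAC level of 4.47, below the minimum), against 17.7% of all genes, and over 1.5-fold higher was 1 of 9, against 14.8%. For 5 of the 9 genes the DAC array was below both untreated arrays, against 37.9% of all genes. With low levels set at 5 this held for 4 of the 9, a setting without a share of all genes. NFKB1 was 0.91 below the untreated mean (SE 0.25, adjusted p = 0.418), and ICAM1 1.27 below it (SE 0.62, adjusted p = 0.503). TNFAIP3 was 0.61 above (SE 1.33, adjusted p = 0.867), and its DAC level of 7.07 lay just over the higher untreated array at 7.01.

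**Figure D3:**
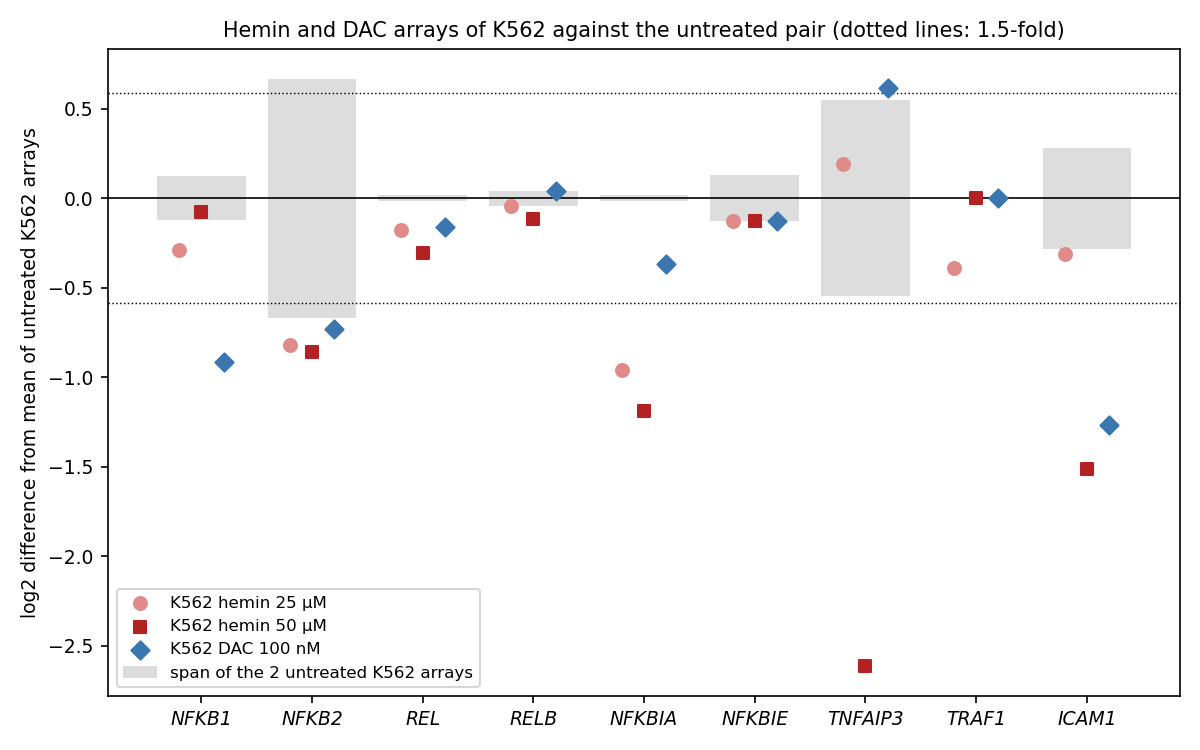
Log2 level of each measured gene (horizontal axis) with 25 µM hemin, 50 µM hemin and 100 nM DAC, as the difference from the untreated mean (vertical axis); grey bars span the 2 untreated arrays and dotted lines mark 1.5-fold. NFKBIA lies under the dotted line at both hemin doses with a narrow grey bar, whereas the bars of NFKB2 and TNFAIP3 pass or come near the dotted lines.

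In HEL cells with DAC 0 of 9 members passed in limma, as did 0 of all genes (0%), and 0 of 9 had an unadjusted p under 0.05, as did 582 of the 10560. Over 1.5-fold either way was 1 of 9, against 11.2% of all genes. This was TRAF1, at 3.01 untreated and 3.63 with DAC, both below the minimum. The DAC doses of the lines differ (20 and 100 nM), and no comparison between them is made.

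The members' neighbours in the pathway were read from lists of textbook genes. These lists were chosen with earlier results of these data known, so the counts describe them and are no test of the pathway. Over all genes tested 7.74% rose with PMA in K562 and 1.06% in HEL, the shares to set beside each count. Of the other family members with a fit in K562, 1 of 3 rose with PMA and 0 fell. This was RELA, the transactivating partner of p50, at 8.98 and 8.79 in untreated cells and 10.09 with PMA (log2 change 1.20, SE 0.24, adjusted p = 0.0468 from limma). NFKBIZ, a nuclear IkB protein, had a log2 change of 2.82 that did not pass (adjusted p = 0.0807). It was at 10.98 in untreated HEL cells against 5.86 and 6.93 in untreated K562 cells, a difference that did not pass in limma either.

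Of 16 kinases and adaptors upstream 3 rose with PMA in K562 and 0 fell. They were IKBKB, the catalytic IkB kinase (1.36), TRAF3 (1.23) and TRAF6 (2.22), the last 2 being adaptor ligases, in log2 change. Of 10 ubiquitin editors and other inhibitors 3 rose and 0 fell, namely TNIP1 (1.98) and TNIP2 (1.82), which bind A20, and RNF11 (1.72), which works in the A20 complex. The median log2 change was 0.36 over the kinases and adaptors, against 3.61 over the members. In HEL 0 genes of these 2 lists passed with PMA in the 9-array fit, 0 of 16 and 0 of 10.

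Among 7 receptors 3 rose in K562 with PMA and 0 fell, namely CD40 (2.92), IL1R1 (3.03) and TNFRSF1B (2.35), and the changes of the last 2 start below the minimum, from which they were 0.36 and 1.39. Among 4 ligands 2 rose. TNF, the classical inducer of the pathway, was at 2.27 and 2.28 in untreated K562 cells and 8.18 with PMA, and at 7.95 in untreated and 9.93 in PMA-treated HEL cells (log2 change in HEL 1.98, SE 0.11, adjusted p = 0.0399 from limma). IL1B, another inducer, was at 3.18 and 2.63 in untreated K562 cells, 12.34 with PMA, and 9.74 and 11.82 in untreated and PMA-treated HEL cells. Both ligands were thus below the minimum in untreated K562 cells and well above it in untreated HEL cells, a difference between the lines that passed for TNF (adjusted p = 0.00107) and IL1B (adjusted p = 0.00373).

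Of 24 other known targets of NF-kappaB 15 rose with PMA in K562 and 0 fell, against 7.74% of all genes that rose. The median log2 change of the 24 was 3.80, although 8 of them start below the minimum. All 24 were at 5 or more on the K562 PMA array, against 14 to 16 on each other K562 array. MMP9, among the genes that rose, reached 5 on no K562 array but that with PMA and entered the fit only through it. How many others did so was not counted. The 15 were the chemokines CCL2, CCL5, CXCL2 and CXCL8, the survival genes BCL2A1 and IER3, the surface proteins CD44, CD83 and TNFRSF9, the enzymes MMP9, PTGS2 and SOD2, the cyclin CCND1, the growth factor PDGFB and the transcription factor IRF1. In HEL 2 of the 24 rose, BCL2A1 and MMP9, both from below the minimum, and the median log2 change was 0.72 (0.54 with low levels set at 5, where 12 of the 24 start). The difference between the PMA responses of the lines passed as smaller in HEL for both TNF and IL1B among the ligands. Their levels in untreated K562 cells lie below the minimum, so these 2 calls rest on such values. With PMA the level of TNF was lower in K562 than in HEL, and that of IL1B was higher. The difference also passed as smaller in HEL for 7 of the 24 targets (BCL2A1, CCL2, CCL5, CD83, PDGFB, PTGS2 and TNFRSF9) and as larger for 0, against 2.66% of all genes either way. Without any one of the 4 untreated and hemin K562 arrays 0 of all genes passed with PMA in HEL or in the difference between the lines, so these calls are lost as well. With hemin or DAC 0 genes of these 6 lists passed in either line.

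**Figure D4:**
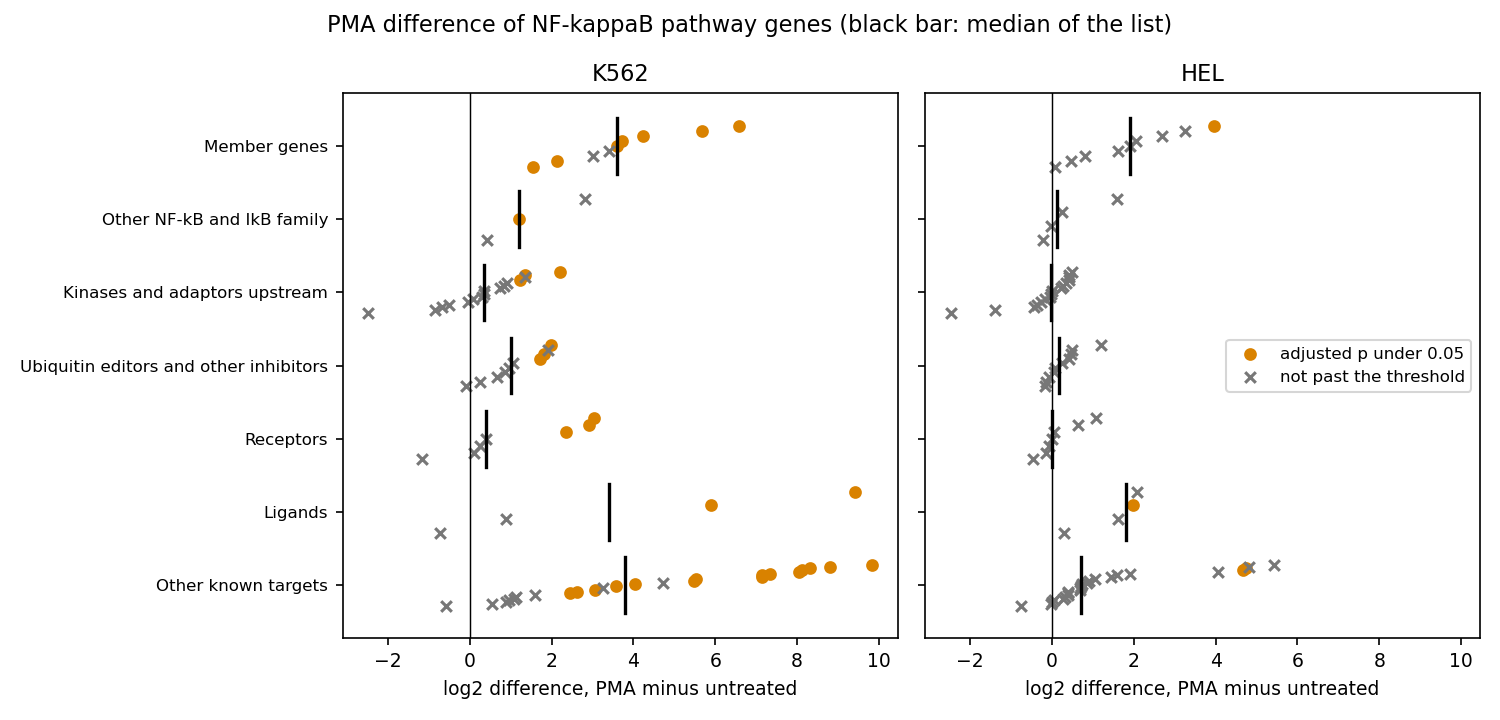
Difference in log2 level between PMA and untreated cells (horizontal axis) for the member genes and for 6 lists of pathway genes (rows), in K562 on the left and HEL on the right; filled circles passed the threshold in limma, crosses did not, and black bars mark the median of a list. The K562 medians of the members and of the other known targets are 3.61 and 3.80, and those in HEL 1.90 and 0.72.

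The mean level of markers of platelet precursors was higher with PMA in both lines, though it includes levels below the minimum. The mean level of the 8 megakaryocyte markers with a probe set was 4.05 and 3.88 in untreated K562 cells, 7.27 with PMA, 8.40 in untreated HEL cells and 10.61 with PMA, and 5 of the 8 were at 5 or more in K562 cells with PMA. All 5 megakaryocyte markers with a fit in K562 were over 1.5-fold higher with PMA, against 25.8% of all genes. Their median log2 change was 3.57, and 3 of the 5 start below the minimum. PF4 and SELP were at 2.25, the lowest value of the arrays, on every K562 array and had no fit there. Of the monocyte list 2 of 10 genes, LYZ and ITGAM, have a probe set, with a mean level of 5.27 and 7.96 on the untreated K562 arrays and 6.92 with PMA. Of the lymphocyte list 3 of 6 have a probe set, and CD3D was at 10.42 and 11.01 in untreated K562 cells and 12.51 with PMA, while CD2 stayed below the minimum on every K562 array. The part of these cell states in the changes of the members was not tested.

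By the probe sets that represent the genes, the member with the widest range of level over the 9 arrays was TRAF1, with 6.98 on the log2 scale. Its low end is below the minimum, and from the minimum its range is 4.60, less than the 5.74 of ICAM1, the 4.92 of NFKBIA and the 4.87 of TNFAIP3. The 5 genes whose levels followed it most closely by Pearson correlation over the 9 arrays were DUSP4 (0.995), MMP9 (0.994), ITGB1BP2 (0.993), MTMR11 (0.993) and CD276 (0.993). Each of them was highest in K562 with PMA, and on the HEL PMA array DUSP4, MMP9 and ITGB1BP2 were above the minimum while MTMR11 and CD276 were below it. On every array without PMA these 5 genes and TRAF1 were below the minimum, so their correlations rest on the PMA arrays. Among the members the correlation with TRAF1 was 0.984 for NFKBIE, 0.979 for RELB, 0.936 for NFKBIA and 0.728 for REL. The 9 points share a normalization and the PMA array of K562 carries most of the range, so these values describe a pattern and carry no test.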

How the data were processed

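Total RNA of 9 samples of K562 and HEL cells was measured on Affymetrix expression arrays. The authors deposited log2 expression values per probe set, and the submitters' processing notes name GCRMA, without a version. The paper read for this work used the arrays as a published hemin-treatment data set and names no test for them. Student's t-test, which it names for its own experiments, was run as an alternative for hemin. In R 4.3.3 with limma 3.58.1, probe sets with 1 gene in the platform annotation (22858 of 27306; 1164 name several and 3284 are not listed) and a log2 value of at least 5 on at least 1 array of the fit were kept. A gene was represented by its kept probe set with the highest mean. lmFit and eBayes were run over 6 K562 arrays in 4 groups (17615 probe sets, 9890 genes) and over 9 arrays in 7 groups (18903 probe sets, 10560 genes), each with 2 residual degrees of freedom, and p-values were adjusted by Benjamini-Hochberg at a threshold of 0.05. The fit was also run on simulated arrays in which the lone PMA array had the spread of the others, so that assumption was not tested. Named were all members, listed pathway genes that passed, otherwise up to 3 per list with the largest change with PMA in each line, and the 5 genes most like the widest-ranging member. The members and lists were chosen with earlier results of these data known. Promoter windows were scanned in Python 3.11.15. The number of arrays limits precision.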

Additional observations from a re-analysis of the deposited data

How the results depend on the processing

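Directions of the members with PMA in K562 held under every alternative run (quantile normalization, median centring, no filter on low values, a minimum of 6, the mean of all kept probe sets, an intensity trend, all 9 arrays in 1 fit and each array left out), and 6 to 8 of 9 passed (ICAM1 being lost with no filter and with all 9 arrays in 1 fit, and NFKB2 passing in 5 settings) except where an array was left out, when 0 passed (range 0 to 0). The fit is then left with 1 residual degree of freedom fewer. With PMA in HEL 2 passed with median centring, 3 with no filter, 2 with an intensity trend and 0 to 0 with an array left out, against 1. For the difference between the PMA responses 1 passed with median centring, 2 with no filter and 2 with the trend, against 0. For untreated HEL against K562 2 passed with quantile normalization and 2 with no filter, against 1, and 0 to 0 with an array left out. With hemin 1 member passed the methods' t-test (Student's t-test of the 2 hemin against the 2 untreated arrays) before adjustment, as did 673 of all genes, and 0 members and 1 of all genes passed after Benjamini-Hochberg.

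Over 1.5-fold with hemin were 4 members, 2 with the 25 µM array alone and 2 to 4 with an array left out, and 2 were over 2-fold. With DAC in K562 these were 4, 2 with the mean of all kept probe sets, 2 to 4 with an array left out (2 without untreated array 1) and 1 over 2-fold. With DAC in HEL they were 1, 2 with the mean of probe sets, 0 over 2-fold and 0 with levels under 5 set at 5, an alternative chosen after seeing the data, and between the untreated lines 3, and 1 over 2-fold. Signs turned for TNFAIP3 with hemin (0.19 with 25 µM alone and without the 50 µM array, over leave-outs from -2.62), for RELB (0.0067 with quantile normalization and 0.0021 with median centring) and ICAM1 (-0.24 with the mean of probe sets) with DAC in HEL, and between the untreated lines for RELB (-0.066 with quantile normalization) and TNFAIP3 (-0.30 without untreated array 1, over leave-outs to 0.80). The causes were not tested. No paired analysis was possible because the labels give no replicate numbers that the groups share.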
